A study of Mus musculus with 6 samples.

Results

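The 5 mature neural microRNAs (miRNAs) mmu-miR-124-3p, mmu-miR-9-5p, mmu-miR-9-3p, mmu-miR-128-3p and mmu-miR-132-3p were followed across 6 small RNA libraries made from mouse embryonic stem cells. They were chosen by name, with earlier results of these data known, and were 5 of the 1899 mature miRNA entries in each count table. All cells were of strain 129/Ola and either lacked Wt1 (Wt1 KO) or were wild type (WT). Wt1 is a zinc finger transcription factor of the developing kidney and gonad. Each of 6 groups had 1 library: RA-treated Wt1 KO cells, untreated Wt1 KO cells, Wt1 KO cells with inducible Wt1 at 12 h and at 24 h of doxycycline (dox), RA-treated WT cells, and untreated WT cells. RA is retinoic acid, a vitamin A derivative under which stem cells differentiate. Its dose was 1 µM (written µm in the labels and taken as micromolar), its duration is not stated, and dox, the inducer of the Wt1 transgene, was used at 1 µg/ml. Serum, leukemia inhibitory factor and gelatin-coated dishes were common to all groups. The clone with the inducible gene is not named in the labels, so untreated Wt1 KO and dox-treated cells may be different lines. A dox-treated library without the transgene is not used here. Wt1 mRNA is not measured in small RNA libraries, so neither its loss nor its induction was checked.

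A miRNA is cut from a hairpin precursor, and 1 of the hairpin's arms, named 5p or 3p, is usually kept to guide silencing of mRNAs that pair with its seed, the bases near its 5′ end. miR-124 is the most abundant miRNA of neurons and represses many non-neuronal mRNAs. miR-9 is made in neural progenitors and neurons, where both of its arms act, and is known to target the neuronal repressor REST and the nuclear receptor Tlx. miR-128 is enriched in the brain and restrains neuronal excitability, and miR-132 is induced by neuronal activity through CREB and promotes dendrite growth.

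The mature sequences are shown because the seeds decide which entries could act on the same mRNAs, and because the whole sequences show how far the 5 lie from similar entries. They are written 5′ to 3′ as in the deposited tables, with T for U, and capitals mark the seed, bases 2 to 8.
mmu-miR-124-3p: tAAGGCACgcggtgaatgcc
mmu-miR-9-5p: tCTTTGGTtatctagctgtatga
mmu-miR-9-3p: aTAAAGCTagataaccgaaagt
mmu-miR-128-3p: tCACAGTGaaccggtctcttt
mmu-miR-132-3p: tAACAGTCtacagccatggtcg
mmu-miR-212-3p: tAACAGTCtccagtcacggcca
mmu-miR-27b-3p: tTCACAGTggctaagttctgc
The 5 neural miRNAs carry 5 different seeds. miR-212-3p, which is made from the same transcript as miR-132-3p, carries the seed of miR-132-3p. miR-27b-3p, an abundant miRNA of many tissues, holds the seed letters of miR-128-3p shifted by 1 base.

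The entry nearest to miR-132-3p in sequence was miR-212-3p, at 5 single-base edits. The nearest entries to the other members lay 7 or 8 edits away. No read at any of the 5 was counted as matching several entries, and none of the 5 was in an entry merged with other miRNAs. For miR-9-5p, miR-9-3p, miR-128-3p and miR-132-3p the deposited sequence was identical to that in the RefSeq table for GRCm38.p6. That table held no entry for miR-124-3p, so neither its loci nor the number of its hairpins is given here.

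In GRCm38.p6, miR-9 comes from 3 hairpins, so its reads cannot be assigned to a locus. Mir9-1 lies at chr3:88215598-88215686 on the plus strand, in an intron of the long non-coding RNA gene Gm3764. Mir9-2 lies at chr13:83738814-83738885 on the plus strand, in an exon of the long non-coding RNA gene C130071C03Rik, and Mir9-3 at chr7:79505264-79505353 on the plus strand, in an intron of Mir9-3hg. miR-128-3p comes from 2 hairpins, Mir128-1 at chr1:128202361-128202430 on the plus strand in an intron of R3hdm1, and Mir128-2 at chr9:112118636-112118711 on the minus strand in an intron of Arpp21. Mir132 at chr11:75173682-75173747 and Mir212 at chr11:75173388-75173478, both on the plus strand, lie in introns of 1700016P03Rik. The gene context is that of GENCODE M21, and the build behind the deposited counts is not given in the sources used here.

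Depth differed 73.0-fold, with 83626 uniquely matched reads in RA-treated Wt1 KO, the shallowest library, and 6106104 in RA-treated WT, the deepest. Levels are given as normalised CPM, that is counts made comparable between libraries by TMM factors, with an exact 95% Poisson interval in brackets. A count of 3, the limit that a count of 0 allows, equals 27.8 normalised CPM in RA-treated Wt1 KO and at most 2.75 in the other 5 libraries. Ratios are log2 ratios with a 95% counting interval in brackets. Calls go by a size rule, which asks for a log2 ratio of 1 or more (higher) or -1 or less (lower) whose interval leaves out 0. The labels name no molecular identifiers, so PCR reads are not independent molecules and all intervals cover counting error only. Since each group is 1 library, no difference has a replicate check or a test. In these bulk libraries fewer cells of a type and less RNA per cell cannot be told apart. The 9 stem cell marker miRNAs, of the miR-290 and miR-302 clusters, held 6.96% of the reads in RA-treated Wt1 KO, between 11.9% and 18.6% in the 4 libraries without RA and 0.597% in RA-treated WT.

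The 5 neural miRNAs together were scarce in every library. They had 62 reads in RA-treated Wt1 KO, which is 741 CPM of the library total [568 to 950, exact binomial]. Untreated Wt1 KO had 913 reads (516 CPM [483 to 551]). There were 718 reads at 12 h of dox (585 CPM [543 to 629]) and 2187 at 24 h (603 CPM [578 to 628]). RA-treated WT had 2894 reads (474 CPM [457 to 492]) and untreated WT 372 (350 CPM [315 to 387]). miR-9-5p and miR-128-3p supplied most of these reads. Averaged over the 6 libraries, the level was 272 normalised CPM for miR-9-5p, 201 for miR-128-3p, 56.3 for miR-124-3p, 15.3 for miR-132-3p and 0.277 for miR-9-3p. Of the 351 miRNAs with a mean count of at least 50, which were analysed across all entries, 3 were members, namely miR-124-3p, miR-9-5p and miR-128-3p. miR-132-3p, with a mean count of 32.7, and miR-9-3p, with 0.833, fell below that minimum. The ratios of miR-132-3p are still given and held to the size rule, on counts as low as 2, while the shares over all miRNAs printed beside the members are of the 351 and do not hold it.

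**Figure D1:**
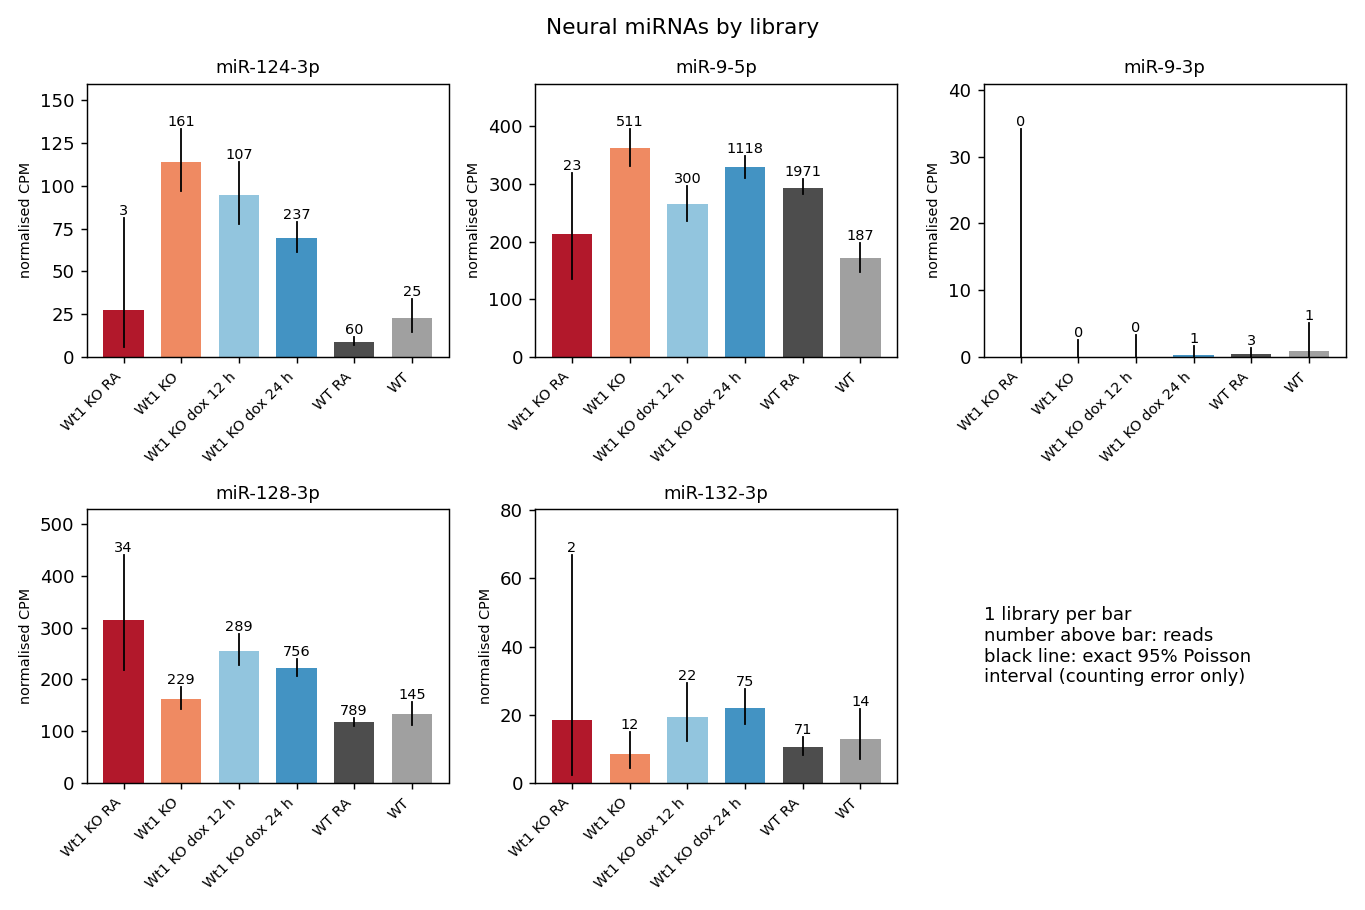
Levels of the 5 neural miRNAs in normalised CPM (vertical axis, from 0) in each of the 6 libraries (1 bar each), with the exact 95% Poisson interval as a black line and the read count above it. miR-124-3p has its highest bar in untreated Wt1 KO (114) and its lowest in RA-treated WT (8.96), while the highest bar is 2.11 times the lowest for miR-9-5p and 2.67 times for miR-128-3p, and miR-9-3p has at most 3 reads.

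miR-124-3p, the neuronal miRNA, varied most of the 4 members with ratios. It had 3 reads in RA-treated Wt1 KO, 161 in untreated Wt1 KO, 107 at 12 h of dox, 237 at 24 h, 60 in RA-treated WT and 25 in untreated WT. Its normalised level was 27.8 CPM [5.73 to 81.1] in RA-treated Wt1 KO, 114 [97.2 to 133] in untreated Wt1 KO, 94.5 [77.5 to 114] at 12 h of dox, 69.7 [61.1 to 79.1] at 24 h, 8.96 [6.84 to 11.5] in RA-treated WT and 22.9 [14.9 to 33.9] in untreated WT. The 3 Wt1 KO libraries without RA were thus high and the WT libraries low, and the level in untreated Wt1 KO was 12.7 times that in RA-treated WT. From the highest level down, the order was untreated Wt1 KO, dox 12 h, dox 24 h, RA-treated Wt1 KO, untreated WT and RA-treated WT. Only 2 neighbouring pairs in that order had a ratio whose interval excludes 0, dox 12 h over dox 24 h and untreated WT over RA-treated WT.

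The other arm of miR-124, miR-124-5p, had 1 read in RA-treated Wt1 KO, 22 in untreated Wt1 KO, 24 at 12 h of dox, 35 at 24 h, 21 in RA-treated WT and 4 in untreated WT. It made up 12.0% of the reads of both arms in untreated Wt1 KO [7.69 to 17.6, exact binomial], 18.3% at 12 h of dox [12.1 to 26.0], 12.9% at 24 h [9.13 to 17.4], 25.9% in RA-treated WT [16.8 to 36.9] and 13.8% in untreated WT [3.89 to 31.7]. The 3p arm was the main arm in each of these 5 libraries, and the library of RA-treated Wt1 KO had only 4 reads of both arms. This share needs no scaling between libraries.

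miR-9-5p, the main arm of miR-9, had the most reads of the 5 in each library except RA-treated Wt1 KO, where miR-128-3p had more. It had 23 reads in RA-treated Wt1 KO, 511 in untreated Wt1 KO, 300 at 12 h of dox, 1118 at 24 h, 1971 in RA-treated WT and 187 in untreated WT. Its normalised level was 213 CPM [135 to 319] in RA-treated Wt1 KO, 362 [331 to 395] in untreated Wt1 KO, 265 [236 to 297] at 12 h of dox, 329 [310 to 348] at 24 h, 294 [282 to 308] in RA-treated WT and 172 [148 to 198] in untreated WT. Untreated Wt1 KO was the highest library and untreated WT the lowest, 2.11 times apart. In the order untreated Wt1 KO, dox 24 h, RA-treated WT, dox 12 h, RA-treated Wt1 KO and untreated WT, only dox 24 h and RA-treated WT were neighbours whose ratio had an interval excluding 0, at 0.16 [0.05 to 0.27].

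miR-9-3p was almost absent. It had 3 reads in RA-treated WT, 1 at 24 h of dox, 1 in untreated WT and 0 in the other 3 libraries, which are 5 reads beside 4110 of miR-9-5p. Its share of the reads of both arms was 0.122% over all libraries [0.0395 to 0.283, exact binomial] and 0.152% in RA-treated WT [0.0314 to 0.443]. In the libraries without a read, 0 of 511 reads in untreated Wt1 KO allows a share of up to 0.587%, 0 of 300 at 12 h of dox up to 1.0%, and 0 of 23 in RA-treated Wt1 KO up to 13.0%. No fold between groups can be given for this arm at these counts.

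miR-128-3p, the brain-enriched miRNA with a hairpin on each of 2 chromosomes, had 34 reads in RA-treated Wt1 KO, 229 in untreated Wt1 KO, 289 at 12 h of dox, 756 at 24 h, 789 in RA-treated WT and 145 in untreated WT. Its normalised level was 315 CPM [218 to 440] in RA-treated Wt1 KO, 162 [142 to 185] in untreated Wt1 KO, 255 [227 to 287] at 12 h of dox, 222 [207 to 239] at 24 h, 118 [110 to 126] in RA-treated WT and 133 [112 to 157] in untreated WT. The levels formed a higher set, Wt1 KO under RA or dox, and a lower set, untreated Wt1 KO and both WT libraries. The only neighbours in this order whose ratio had an interval excluding 0 were dox 24 h and untreated Wt1 KO.

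The minor arms of miR-128 differ by hairpin and so show which locus gave reads. miR-128-1-5p, from Mir128-1 in R3hdm1, differs from miR-128-2-5p, from Mir128-2 in Arpp21, in both length and sequence.
mmu-miR-128-1-5p: cGGGGCCGtagcactgtctga
mmu-miR-128-2-5p: gGGGGCCGatgcactgtaagaga
miR-128-1-5p had 4 reads in RA-treated Wt1 KO, 27 in untreated Wt1 KO, 53 at 12 h of dox, 92 at 24 h, 178 in RA-treated WT and 30 in untreated WT. miR-128-2-5p had 2 reads in all, both in untreated WT. The Mir128-1 hairpin thus gave 99.5% [98.1 to 99.9, exact binomial] of the 386 minor-arm reads. Whether the 3p arm is divided between the hairpins in the same way was not measured, since its sequence is the same from both.

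miR-132-3p, the activity-induced miRNA, was low in all libraries. It had 2 reads in RA-treated Wt1 KO, 12 in untreated Wt1 KO, 22 at 12 h of dox, 75 at 24 h, 71 in RA-treated WT and 14 in untreated WT. Its normalised level was 18.5 CPM [2.24 to 66.9] in RA-treated Wt1 KO, 8.5 [4.39 to 14.9] in untreated Wt1 KO, 19.4 [12.2 to 29.4] at 12 h of dox, 22.0 [17.3 to 27.6] at 24 h, 10.6 [8.28 to 13.4] in RA-treated WT and 12.9 [7.03 to 21.6] in untreated WT. No neighbouring pair in the order of its levels had a ratio whose interval excludes 0. Its seed partner miR-212-3p had 2 reads in RA-treated Wt1 KO, 17 in untreated Wt1 KO, 16 at 12 h of dox, 61 at 24 h, 39 in RA-treated WT and 8 in untreated WT. miR-212-3p held 42.2% [36.9 to 47.6, exact binomial] of the 339 reads of this pair over all libraries. The other arm of the miR-132 hairpin, miR-132-5p, held 11.7% of the reads of both arms over all libraries, 26 of 222.

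**Figure D2:**
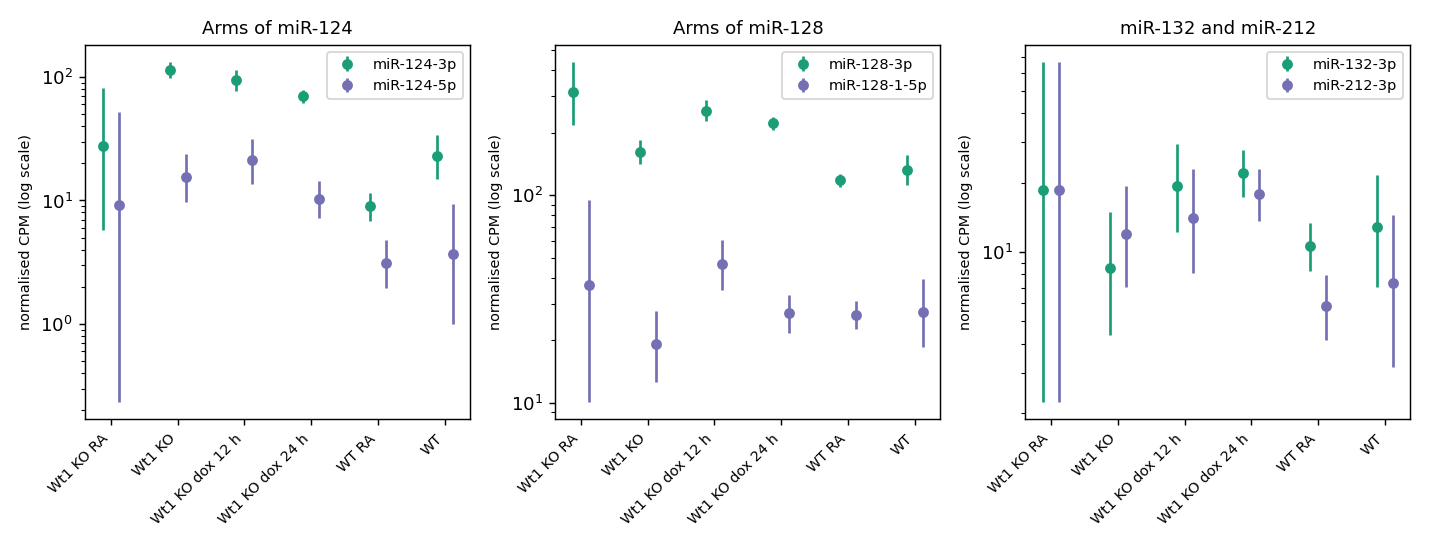
Normalised CPM on a log scale in the 6 libraries for miR-124-3p and miR-124-5p (left), miR-128-3p and miR-128-1-5p (middle) and miR-132-3p and miR-212-3p (right), with exact 95% Poisson intervals. The minor arms of miR-124 and miR-128 lie below the main arm in each library, at 12.0% to 25.9% of both arms for miR-124-5p outside RA-treated Wt1 KO, whereas miR-212-3p and miR-132-3p lie close together, with miR-212-3p at 42.2% of the reads of the pair over all libraries.

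Among entries with the seed letters of the 5, miR-27b-3p far outnumbered miR-128-3p. It had 3082 normalised CPM in RA-treated Wt1 KO, 3680 in untreated Wt1 KO, 5060 at 12 h of dox, 4525 at 24 h, 13107 in RA-treated WT and 11095 in untreated WT. Its level was thus lower in each Wt1 KO library than in either WT library, unlike that of miR-128-3p. miR-27a-3p, with the same shifted seed letters, did not split by genotype. It had 102 normalised CPM in RA-treated Wt1 KO, 172 in untreated Wt1 KO, 323 at 12 h of dox and 176 at 24 h. In RA-treated WT it had 104 and in untreated WT 369. miR-6539, with exactly the seed of miR-128-3p, had 250 normalised CPM in RA-treated Wt1 KO, 501 in untreated Wt1 KO, 523 at 12 h of dox, 389 at 24 h, 35.0 in RA-treated WT and 766 in untreated WT. No other entry shared the seed of miR-124-3p, miR-9-5p or miR-9-3p.

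Likeness of profile was measured as the root mean square distance between log2 levels centred over the 6 libraries, a description over 6 single libraries. The profiles most like that of miR-124-3p were those of miR-1968-5p at 0.33, and miR-1198-5p and miR-665-3p at 0.40 each, against a median distance of 1.41 over the analysed miRNAs. For miR-9-5p they were miR-409-3p at 0.16, miR-361-5p at 0.20 and miR-30c-5p at 0.22 (median 0.84). For miR-128-3p they were miR-15a-5p at 0.21, and miR-148a-3p and miR-379-3p at 0.24 each (median 0.91). No member was among the 3 nearest profiles of another.

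Untreated Wt1 KO was first set against untreated WT, to see what differs in stem cells without Wt1. The neuronal miR-124-3p was 4.89-fold higher in Wt1 KO, and the neural progenitor miRNA miR-9-5p 2.11-fold. miR-124-3p had 161 reads in Wt1 KO and 25 in WT, a log2 ratio of 2.29 [1.70 to 2.98], which ranked 3 from the highest of the 351 analysed miRNAs. miR-9-5p had 511 reads in Wt1 KO and 187 in WT, at 1.07 [0.83 to 1.33], and ranked 38. The minor arm miR-124-5p, counted from other reads, was also higher, at 1.95 [0.53 to 4.08], from 22 reads in Wt1 KO and 4 in WT. miR-128-3p, at 0.28 [-0.02 to 0.60], and miR-132-3p, at -0.59 [-1.84 to 0.62], were not called, and nor was miR-212-3p at 0.67 [-0.58 to 2.14].

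In this comparison 2 of the 5 members were higher and 0 lower. Among the 351 analysed miRNAs, 12.3% were higher and 15.4% lower, and the median ratio was 0.11. Scaled as CPM of the total, all miRNAs together had a median shift of -0.36 and 24 were called higher and 78 lower, against 43 and 54. miR-9-5p was then at 0.71 and no longer called, while miR-124-3p was at 1.93. Stem cell markers held 11.9% of the reads in Wt1 KO and 12.2% in WT, and the summed level of the 5 blood and endothelium markers was 2978 normalised CPM in Wt1 KO and 846 in WT, with miR-223-3p and miR-451a at 0 in both. The part of that difference in the result was not tested.

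In WT cells the RA-treated library was set against the untreated one, for the miRNA response to a differentiation signal. miR-124-3p was 2.59-fold lower with RA, while the other members stayed within the size rule. miR-124-3p had 60 reads in RA-treated WT, a far deeper library, and 25 in untreated WT, which gives a log2 ratio of -1.37 [-2.05 to -0.62] and rank 276 of 351 from the highest. miR-9-5p was at 0.77 [0.56 to 1.00], with an interval above 0 but below the size threshold. miR-128-3p was at -0.18 [-0.43 to 0.09] and miR-132-3p at -0.32 [-1.12 to 0.67]. miR-124-5p, with 21 reads in RA-treated WT and 4 in untreated WT, was at -0.36 [-1.79 to 1.78], too few reads to place it. This comparison and that of untreated Wt1 KO with untreated WT share the untreated WT library and its 25 reads of miR-124-3p, and are not independent.

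Thus 0 of the 5 members were higher and 1 lower with RA in WT, where 22.2% of the 351 analysed miRNAs were higher and 24.2% lower. The stem cell markers held 0.597% of the reads in RA-treated WT and 12.2% in untreated WT. The 5 blood and endothelium markers summed to 80.8 normalised CPM in RA-treated WT and 846 in untreated WT, with miR-142a-3p, miR-223-3p and miR-451a at 0 in both. The part of either in the lower level of miR-124-3p was not tested. The endoderm markers summed to 360 normalised CPM in RA-treated WT and 182 in untreated WT, where miR-122-5p was at 0, and the muscle and mesoderm markers to 886 in RA-treated WT and 329 in untreated WT, with miR-1a-3p and miR-206-3p at 0 in both.

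Other brain-enriched miRNAs were set beside the 5 in this comparison. Of 19 such miRNAs listed, all were in the tables, 5 passed the minimum count, and 12 had reads enough for a ratio or a bound between RA-treated WT and untreated WT. By the size rule 4 were higher and 2 lower, of which 1 higher and 1 lower were among the 5 above the minimum count. Over all 351 miRNAs the shares were 22.2% higher and 24.2% lower, so calls in both directions are not particular to this list. miR-218-5p, known from motor neurons, had 563 reads in RA-treated WT and 14 in untreated WT, a log2 ratio of 2.66 [1.95 to 3.59]. miR-488-3p and miR-1298-5p each had 82 reads in RA-treated WT and 3 in untreated WT, at 1.94 [0.56 to 4.46]. miR-383-5p had 41 reads in RA-treated WT and 0 in untreated WT, at least 2.22-fold higher, computed against 3 counts in the library without a read.

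The 2 lower among the other brain-enriched miRNAs were miR-139-5p and miR-135b-5p. miR-139-5p had 117 reads in RA-treated WT and 74 in untreated WT, at -1.96 [-2.39 to -1.52]. miR-135b-5p had 18 reads in RA-treated WT and 10 in untreated WT, at -1.80 [-2.96 to -0.49]. The abundant miRNAs of that list were not called, miR-149-5p at -0.60 [-0.68 to -0.53] and miR-138-5p, which limits dendritic spine growth, at 0.00 [-0.25 to 0.28]. The median of the 5 analysed miRNAs of that list was -0.60, against 0.13 over all 351 miRNAs. miR-153-3p had no read in any library, and miR-137-3p and miR-219a-5p had 1 read each in all 6.

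**Figure D3:**
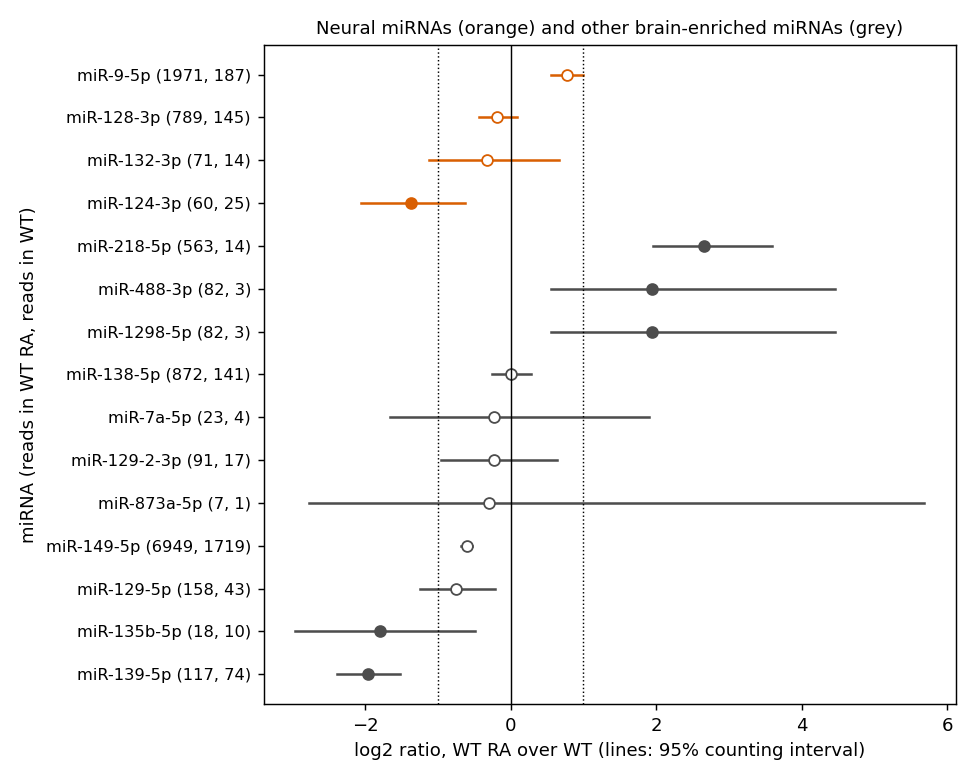
Log2 ratio of RA-treated WT over untreated WT for the members with a ratio (orange, top) and the other brain-enriched miRNAs (grey), with 95% counting intervals, read counts in RA-treated WT and untreated WT after each name, filled points past the size rule and dotted lines at -1 and 1. miR-218-5p lies at 2.66 and miR-139-5p at -1.96, miR-124-3p at -1.37, and miR-383-5p, known only as a bound, is left out.

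The same comparison in Wt1 KO cells rests on the shallowest library. miR-124-3p was again lower with RA, and miR-128-3p lay just under the threshold for higher. miR-124-3p had 3 reads in RA-treated Wt1 KO and 161 in untreated Wt1 KO, a log2 ratio of -1.82 [-4.33 to -0.47]. miR-128-3p had 34 reads in RA-treated Wt1 KO and 229 in untreated Wt1 KO, at 0.97 [0.39 to 1.48]. miR-9-5p had 23 reads in RA-treated and 511 in untreated Wt1 KO, at -0.74 [-1.44 to -0.16], and miR-132-3p had 2 in RA-treated and 12 in untreated Wt1 KO, at 1.39 [-2.08 to 3.29].

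Of the 5 members 0 were higher and 1 lower, beside 23.6% higher and 22.5% lower among the 351. The call of miR-124-3p was lost as CPM of the total, at -1.13 [-3.64 to 0.23], where all miRNAs had a median shift of 0.70 with 126 called higher and 33 lower, against 83 and 79. miR-128-3p was called higher at that scaling, at 1.67, and with a prior count of 2, at 1.03. The muscle and mesoderm markers summed to 3665 normalised CPM in RA-treated Wt1 KO and 468 in untreated Wt1 KO. Of these, miR-1a-3p and miR-206-3p were at 0 in both libraries, and miR-145a-5p was at 0 in RA-treated Wt1 KO only. The blood and endothelium markers summed to 259 in RA-treated and 2978 in untreated Wt1 KO. Here miR-223-3p and miR-451a were at 0 in both libraries, and miR-142a-3p was at 0 in RA-treated Wt1 KO only. miR-6240, an entry that overlaps ribosomal RNA and was listed as a sign of RNA quality, was at 2055 in RA-treated and 308 in untreated Wt1 KO. The part of any of these in the result was not tested. By the limit that miR-335-3p sets, reads carried over from RA-treated WT could make up at most 12.3% of this library, and without them 2.9 of 3 would be left for miR-124-3p, 19.7 of 23 for miR-9-5p and 32.7 of 34 for miR-128-3p.

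In Wt1 KO, 3 of the other brain-enriched miRNAs were higher with RA and 0 lower, 2 of the 3 being among the 5 above the minimum count, beside the 23.6% higher and 22.5% lower of all 351. miR-138-5p had 62 reads in RA-treated Wt1 KO and 193 in untreated Wt1 KO, at 2.08 [1.63 to 2.49]. miR-218-5p had 14 reads with RA and 8 without, at 4.48 [3.16 to 5.97], and miR-488-3p, below the minimum count, had 4 with RA and 1 without, at 5.29 [2.37 to 11.33]. The median of the 5 analysed miRNAs among the other brain-enriched ones was 0.32, against -0.05 over all 351. miR-218-5p and miR-488-3p were thus called higher with RA in both genotypes, while miR-124-3p was called lower in both, in Wt1 KO on 3 reads and not as CPM of the total.

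Between the RA-treated libraries, Wt1 KO was set against WT to see whether the genotypes differ under RA. miR-128-3p was 2.71-fold higher in Wt1 KO, with 34 reads in RA-treated Wt1 KO and 789 in RA-treated WT, a log2 ratio of 1.44 [0.88 to 1.91]. miR-124-3p was at 1.84 [-0.69 to 3.25], which 3 reads in Wt1 KO leave undecided, and miR-9-5p at -0.44 [-1.13 to 0.12]. miR-132-3p was at 1.12 [-2.27 to 2.71]. Of the other brain-enriched miRNAs, miR-138-5p was higher, at 2.15 [1.74 to 2.51], and none was lower. Thus 1 of the 5 members was higher and 0 lower, where 18.8% of the 351 were higher and 19.1% lower. Scaling as CPM of the total gave 82 higher and 42 lower over all miRNAs, with a median shift of 0.24, against 66 and 67. The stem cell markers held 6.96% of the reads in RA-treated Wt1 KO and 0.597% in RA-treated WT. The muscle and mesoderm markers summed to 3665 normalised CPM in RA-treated Wt1 KO and 886 in RA-treated WT. Of these, miR-1a-3p and miR-206-3p were at 0 in both libraries, and miR-145a-5p was at 0 in RA-treated Wt1 KO only. miR-6240 was at 2055 in RA-treated Wt1 KO and 363 in RA-treated WT. The part of any of these in the result was not tested.

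The response to RA in Wt1 KO was then set against that in WT, as the difference of the log2 ratios. miR-9-5p responded lower in Wt1 KO, by -1.51 [-2.15 to -0.88], with ratios of -0.74 in Wt1 KO and 0.77 in WT. miR-128-3p responded higher, by 1.15 [0.58 to 1.73], with ratios of 0.97 in Wt1 KO and -0.18 in WT. With no minimum count this call was lost, at 0.79 [0.21 to 1.36]. For miR-124-3p the difference was -0.45 [-2.12 to 1.22], not detectable at this depth. For miR-132-3p, on 2 reads in RA-treated Wt1 KO, it was 1.70 [-0.42 to 3.82] and not called, but it was called higher as CPM of the total, at 2.30 [0.18 to 4.42], and with a prior count of 2, at 2.33 [0.55 to 4.11]. By the size rule 1 member was higher and 1 lower, beside 22.8% higher and 14.8% lower of the 351. Of the 19 other brain-enriched miRNAs, 8 had a ratio, and 4 were higher and 0 lower. These were miR-138-5p at 2.07, miR-139-5p at 2.07, miR-218-5p at 1.82 and miR-488-3p at 3.35. In RA-treated Wt1 KO they had 62, 3, 14 and 4 reads. All but miR-488-3p were among the 5 above the minimum count, whose median was 1.82, against 0.06 over all 351. As CPM of the total, with a median shift of 0.60 and 130 called higher and 18 lower over all miRNAs, against 80 and 52, the difference for miR-9-5p was -0.91 [-1.55 to -0.28] and not called.

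**Figure D4:**
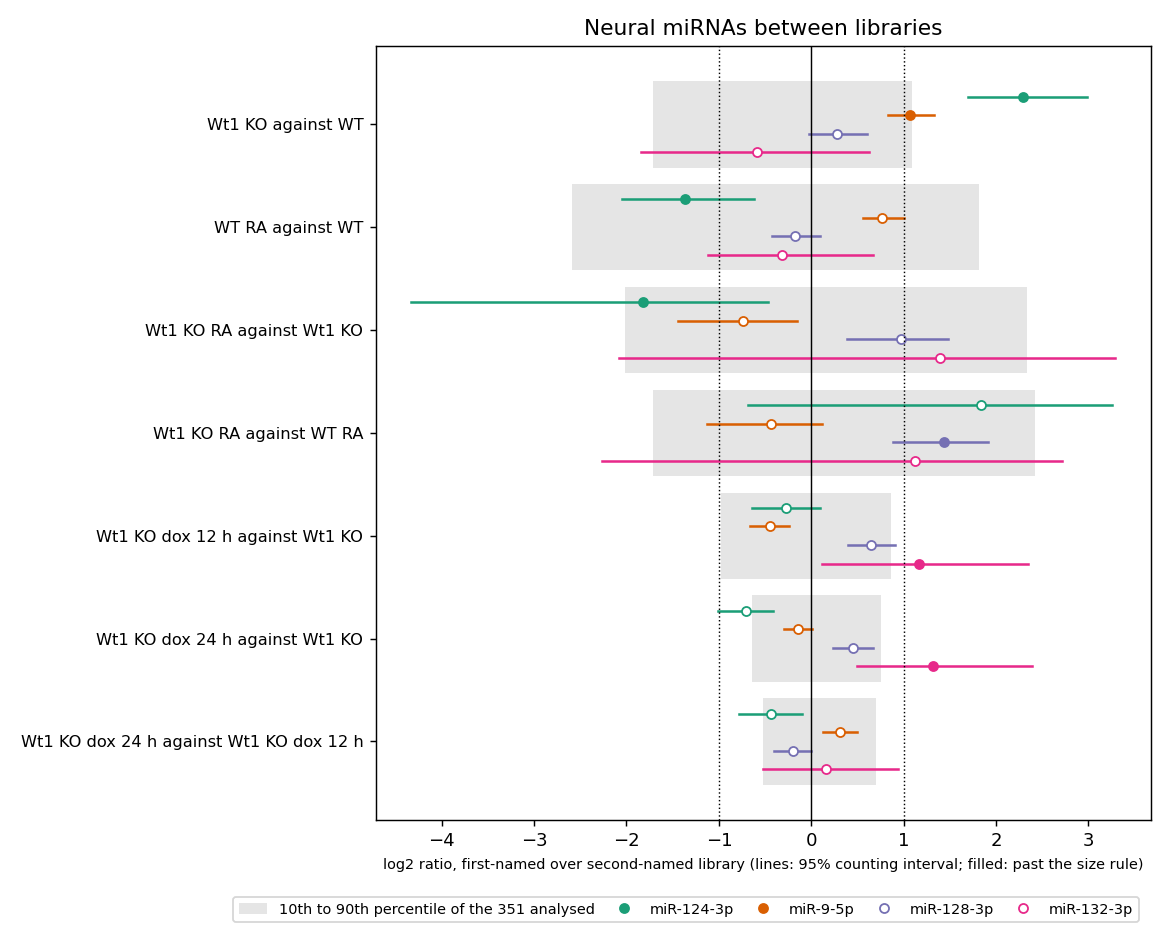
Log2 ratios of 4 neural miRNAs in the 7 comparisons (first-named over second-named library) with 95% counting intervals, filled points past the size rule, dotted lines at -1 and 1, and a grey band from the 10th to the 90th percentile of the 351 analysed miRNAs. miR-124-3p leaves the band in untreated Wt1 KO against WT (2.29) and at dox 24 h against untreated Wt1 KO (-0.71). It is called lower with RA in both genotypes (in Wt1 KO not as CPM of the total). miR-132-3p is the only member called in the dox comparisons, above the band at 12 h (1.17) and at 24 h (1.32) against untreated Wt1 KO.

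The dox libraries were set against untreated Wt1 KO to see what differs when Wt1 is induced. miR-132-3p was the only member called, higher at both times. It had 22 reads at 12 h of dox and 12 in untreated Wt1 KO, a log2 ratio of 1.17 [0.12 to 2.34], and 75 reads at 24 h, in a deeper library, at 1.32 [0.49 to 2.39]. Both ratios rest on the same 12 reads of the untreated Wt1 KO library, so they are not independent. miR-212-3p, from the same transcript, was at 0.23 [-0.85 to 1.30] after 12 h and 0.54 [-0.22 to 1.44] after 24 h, and was not called. The other arm of the miR-132 hairpin, miR-132-5p, was at -0.04 [-2.87 to 2.47] after 12 h, from 3 reads with dox and 4 without. After 24 h miR-132-5p was at 0.08 [-1.56 to 2.30], from 11 reads with dox and 4 without, too few reads to place it.

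miR-124-3p was at -0.27 [-0.64 to 0.09] at 12 h of dox and -0.71 [-1.01 to -0.41] after 24 h, when it ranked 320 of 351 from the highest, still below the size threshold. miR-128-3p was at 0.65 [0.40 to 0.91] after 12 h, rank 52, and 0.45 [0.24 to 0.67] after 24 h, rank 71. miR-9-5p was at -0.45 [-0.66 to -0.24] after 12 h and -0.14 [-0.29 to 0.01] after 24 h. The minor arm miR-128-1-5p was called higher after 12 h, at 1.28 [0.60 to 2.02], from 53 reads with dox and 27 without, and was at 0.48 [-0.13 to 1.18] after 24 h.

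After 12 h of dox 1 of the 5 members was higher and 0 lower, and of the 3 members among the 351 none was called, where 4.27% of the 351 were higher and 8.55% lower. After 24 h it was also 1 higher and 0 lower, with none of those 3 called, where 5.7% were higher and 3.7% lower. The stem cell markers held 18.6% of the reads at 12 h, 16.3% at 24 h and 11.9% in untreated Wt1 KO, and miR-6240 was at 773 normalised CPM at 12 h, 355 at 24 h and 308 in untreated Wt1 KO. The part of either in the result was not tested. Scaling as CPM of the total gave 35 higher and 13 lower over all miRNAs at 12 h, with a median shift of 0.21, against 15 and 30. At 24 h it gave 31 and 10, with a shift of 0.23, against 20 and 13. None of the other brain-enriched miRNAs was called after 12 h, and 3 were higher and 0 lower after 24 h. All 3 were below the minimum count, so the shares of the 351 do not hold them. miR-135b-5p had 83 reads at 24 h and 16 in untreated Wt1 KO, at 1.07 [0.32 to 1.98]. The others were named after their values were seen. miR-129-1-3p had 18 reads at 24 h and 1 in untreated Wt1 KO, at 2.35 [0.24 to 8.28]. miR-129-2-3p had 61 reads at 24 h and 10 in untreated Wt1 KO, at 1.28 [0.36 to 2.47].

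The later time was also set against the earlier one. No member was called in either direction, where 4.27% of the 351 were higher after 24 h than after 12 h and 1.14% lower. miR-124-3p was at -0.44 [-0.78 to -0.10], rank 309, miR-9-5p at 0.31 [0.13 to 0.50], miR-128-3p at -0.20 [-0.40 to 0.00] and miR-132-3p at 0.16 [-0.52 to 0.94]. The minor arm miR-124-5p was called lower after 24 h, at -1.05 [-1.83 to -0.23], from 35 reads after 24 h and 24 after 12 h.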

How the data were processed

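Small RNA was sequenced in 6 libraries, 1 per group. Per the labels' protocols, total RNA was ligated to adapters and the miRNA band and a band of longer small RNAs were pooled. The deposited values are counts per mature miRNA, per the file headers the reads that match 1 entry (unique matches) or several. Aligner, mismatches, miRBase version and genome build: not given in the sources used here. No other per-sample columns were left out (0).

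Unique-match counts were used as deposited, from 83626 to 6106104 per library, and normalised with TMM factors, trimmed means of M values (edgeR 4.0.16, R 4.3.3). Ratios carry a prior count of 0.5 and a 95% exact conditional binomial (Clopper-Pearson) interval, made in Python 3.11.15 with scipy 1.17.1, and the difference of responses a delta-method interval. No test was possible with 1 library per group. The script was tested on simulated data. A fold against a library without a read uses 3 counts in that library.

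The members, the lists and the rules were chosen with earlier results of these data known. Named miRNAs are the members, their other arms and copies, seed sharers, the 3 nearest profiles per analysed member, and of the other brain-enriched miRNAs the 4 most abundant and those called with RA in WT. miR-7a-5p, miR-129-1-3p and miR-129-2-3p, also named, were chosen after their values were seen. Hairpin positions and mature sequences were looked up in the RefSeq table for GRCm38.p6. Alternatives were CPM of the total, CPM without the stem cell clusters, the median of ratios (DESeq2 1.42.0), no minimum count, a prior count of 2, multi-match reads added, and removal of possible WT RA reads.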

Additional observations from a re-analysis of the deposited data

Results flagged for a closer look

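The log2 ratio of miR-9-5p with RA had opposite signs in the genotypes, and neither passed the size rule. It was -0.74 [-1.44 to -0.16] in Wt1 KO, from 23 reads with RA and 511 without, and 0.77 [0.56 to 1.00] in WT, from 1971 reads with RA and 187 without. The difference of the responses, Wt1 KO minus WT, was -1.51 [-2.15 to -0.88]. This interval covers counting error only, and with 1 library per group the difference was not tested. It was -0.91 as CPM of the total and -0.80 [-1.43 to -0.16] without the stem cell clusters in the total. The ratio in Wt1 KO depended on the scaling. It was -0.04 [-0.74 to 0.53] as CPM of the total, -0.17 [-0.87 to 0.41] without the stem cell clusters and -0.56 [-1.26 to 0.01] by the median of ratios, each with an interval that includes 0, and -1.09 [-1.79 to -0.52] with no minimum count.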

How the results depend on the processing

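No called ratio of a member reversed under the alternatives run. As CPM of the total, and with the stem cell clusters left out of the total, the count of members called in untreated Wt1 KO against WT was 1 (miR-124-3p), and miR-9-5p was at 0.71 and 0.73. For RA in Wt1 KO, both of these scalings called 1 member, miR-128-3p, higher, at 1.67 and 1.55, and not miR-124-3p, at -1.13 and -1.25. In that comparison the median of ratios called 2 members (miR-128-3p higher at 1.15, miR-124-3p lower), no minimum count 2 (miR-124-3p and miR-9-5p lower, the last at -1.09), and removal of the reads that RA-treated WT could have given 2 (miR-128-3p higher at 1.12, miR-124-3p lower). Over all 351 miRNAs the median of ratios gave 91 higher and 62 lower there, and that removal gave 83 higher and 73 lower. For the difference of RA responses, CPM of the total and the total without stem cell clusters each called 2 higher, miR-128-3p and miR-132-3p, the last at 2.30 and 2.42, and no minimum count called 1 (miR-9-5p lower, with miR-128-3p at 0.79). Each of these alternatives changes a scaling common to all miRNAs or removes reads. Any other cause was not tested. The ratio of miR-124-3p ranged from 1.93 to 2.33 for untreated Wt1 KO against WT and from -1.52 to -1.27 for RA in WT. Ratios not called that changed sign were those of miR-128-3p for untreated Wt1 KO against WT (-0.08 to 0.32), miR-9-5p for dox 24 h (-0.15 to 0.17), and miR-124-3p for dox 12 h (-0.31 to 0.06) and for the difference of RA responses (-0.81 to 0.27). The members had 0 multi-match reads, so adding such reads could change their ratios only through the scaling. With them, all 32 ratios of members kept their call or their lack of a call. With a prior count of 2, 30 of the 32 did so. It called 2 members for RA in Wt1 KO (miR-128-3p higher at 1.03, miR-124-3p lower at -1.32), where it gave 84 higher and 69 lower over all 351 miRNAs. For the difference of RA responses it called 3 (miR-9-5p lower, miR-128-3p higher, and miR-132-3p higher at 2.33), where it gave 100 higher and 45 lower over all 351 miRNAs. Over all 351 miRNAs the total without stem cell clusters gave 25 higher and 76 lower for untreated Wt1 KO against WT, 116 and 41 for RA in Wt1 KO, 93 and 37 for RA-treated Wt1 KO against RA-treated WT, 44 and 9 for dox 12 h, 37 and 6 for dox 24 h, and 139 and 13 for the difference of RA responses. The median of ratios gave 80 and 47 for RA-treated Wt1 KO against RA-treated WT, 22 and 23 for dox 12 h and 98 and 38 for the difference, and no minimum count gave 60 and 110 for RA in Wt1 KO, 49 and 107 for RA-treated Wt1 KO against RA-treated WT, 27 and 19 for dox 12 h and 65 and 82 for the difference. No paired analysis was possible because each group has 1 library, and no library could be left out for the same reason. Depth limits miR-9-3p in all libraries, and miR-124-3p and miR-132-3p in RA-treated Wt1 KO.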

Other observations

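Of the other brain-enriched miRNAs, miR-7a-5p, chosen here after its values were seen, was the 1 called higher in untreated Wt1 KO against WT. It had 36 reads in Wt1 KO and 4 in WT, a log2 ratio of 2.65 [1.32 to 4.75], and fell below the minimum count. miR-7a-5p is known from neuroendocrine cells. Its normalised level was 9.26 CPM in RA-treated Wt1 KO, 25.5 in untreated Wt1 KO, 26.5 at 12 h of dox, 44.4 at 24 h, 3.44 in RA-treated WT and 3.67 in untreated WT. miR-139-5p was the 1 called lower in untreated Wt1 KO, at -1.18 [-1.77 to -0.63], from 42 reads in Wt1 KO and 74 in WT. Of the 19 listed, 9 had reads enough for a ratio or a bound in this comparison. Among the 351 analysed miRNAs, which do not include miR-7a-5p, 12.3% were higher and 15.4% lower.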
